A study of Homo sapiens with 6 samples.

Results

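Transcripts of 9 genes that set the pace of the G1 phase of the cell cycle were followed in human forebrain organoids given amyloid-β 42 (Aβ42) or vehicle. They are the Cip/Kip inhibitors CDKN1A, CDKN1B and CDKN1C, the INK4 inhibitors CDKN2A, CDKN2C and CDKN2D, and the D cyclins CCND1, CCND2 and CCND3. They were taken by symbol from a table of 18056 genes, and all 9 were found in it. The set was chosen by the p-value of CDKN1A in the comparison of these same libraries, which ranked 2 among genes higher with Aβ42. The other 8 genes were added as its family and as the cyclins these inhibitors act on. The difference in CDKN1A is therefore given as a description, and no count over the 9 genes is read as evidence about them.

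The organoids were grown from DYR0100, an established human induced pluripotent stem cell line labelled wild type, by a dorsal forebrain protocol, and every library carries the same batch label. One group of 3 libraries received vehicle, and the other group of 3 received 5 µM Aβ42, the aggregation-prone amyloid peptide. Per the series' design the exposure lasted 6 days, and the replicates are described there as independent biological replicates. All material comes from 1 cell line, and neither the age of the organoids nor the number pooled per library is given in the sources used here. Polyadenylated RNA was sequenced. Total estimated counts were between 16465390 and 16742958 per library.

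Cells enter the division cycle when D cyclins bind and switch on the kinases CDK4 and CDK6, which phosphorylate the retinoblastoma protein and release E2F transcription factors. INK4 proteins bind CDK4 and CDK6 directly and keep the D cyclins off them. Cip/Kip proteins bind cyclin-CDK complexes more widely, restrain CDK2 and also help to assemble the cyclin D complexes. In the developing cortex, D cyclins are made in radial glia and other progenitors, whereas CDKN1B, CDKN1C and CDKN2D are known for holding cells out of the cycle as neurons form. CDKN1A is raised by DNA damage and by several other stress and growth signals.

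The table gave each gene by Entrez gene ID. In the RefSeq annotation of GRCh38.p14, CDKN1A (ID 1026) lies on chromosome 6 from 36676463 to 36687332, CDKN1B (1027) on chromosome 12 from 12717368 to 12722369, and CDKN1C (1028) on chromosome 11 from 2883218 to 2885775. CDKN2A (1029) lies on chromosome 9 from 21967752 to 21995324, CDKN2C (1031) on chromosome 1 from 50960745 to 50974634, and CDKN2D (1032) on chromosome 19 from 10566460 to 10568979. CCND1 (595) lies on chromosome 11 from 69641156 to 69654474, CCND2 (894) on chromosome 12 from 4273762 to 4305353, and CCND3 (896) on chromosome 6 from 41934933 to 42050035.

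The promoters of CDKN1A and CDKN1B are shown because these were the most abundant of the 9 transcripts and had log2 fold changes of different size. RefSeq windows were at hand for 6 of the 9 genes, with 11 start sites in all, and CCND1, CCND2 and CDKN1C had none listed. Each sequence below holds the 250 bases before the listed start (GRCh38.p14, plus strand), read 5′ to 3′, with every GC box (GGGCGG, the site of Sp1 and KLF factors) in capitals.
CDKN1A, chr6:36678464-36678713: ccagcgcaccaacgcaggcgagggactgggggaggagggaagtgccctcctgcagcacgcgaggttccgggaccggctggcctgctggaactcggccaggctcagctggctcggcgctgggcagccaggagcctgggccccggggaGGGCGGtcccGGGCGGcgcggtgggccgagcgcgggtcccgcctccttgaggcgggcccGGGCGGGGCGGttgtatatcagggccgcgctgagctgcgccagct
CDKN1B, chr12:12717118-12717367: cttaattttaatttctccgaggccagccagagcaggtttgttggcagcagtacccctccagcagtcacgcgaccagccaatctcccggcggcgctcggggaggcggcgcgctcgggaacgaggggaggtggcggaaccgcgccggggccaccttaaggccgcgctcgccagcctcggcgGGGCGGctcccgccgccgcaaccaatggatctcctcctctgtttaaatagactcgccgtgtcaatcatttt
The CDKN1A window had 4 matches to GGGCGG on either strand, the last of which share 1 base, and the CDKN1B window had 1. The motif was present in 8 of the 11 windows of these genes and in 42.6% of 35116 windows of the same length. CCAAT, read on both strands, occurred 2 times in the CDKN1B window and 0 times in that of CDKN1A, against 32.0% of all windows with a match. The E2F core TTCCCGC, on both strands, was found in 1 of the 11 windows, 2 times, at the CDKN2C start site whose window runs from 50968456 to 50968705, and in 5.52% of all windows. TATAAA, on both strands, was in 0 of the 11 and in 10.7% of all windows. A match is only a run of letters and does not show that a factor binds there.

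Levels were compared between genes as deposited TPM, which is scaled for transcript length. Over the 6 libraries the order was CDKN1A (mean 209.1 TPM), CDKN1B (197.4), CCND2 (163.4), CDKN2D (149.7), CCND3 (39.7), CDKN2C (18.4), CCND1 (5.85), CDKN1C (4.92) and CDKN2A (0.113). CDKN1A exceeded 96.2% of the listed genes, whereas CCND1 and CDKN1C exceeded 38.0% and 36.4%. CDKN1A and CDKN1B could not be ordered across all libraries, since CDKN1A was above CDKN1B in 3 of 6 libraries. CCND2 and CDKN2D overlapped as well, with CCND2 above in 5 of 6 libraries, and so did CCND1 and CDKN1C, with CCND1 above in 4 of 6. CDKN2D, CCND3, CDKN2C and CCND1 were separated from one another in all 6 libraries. Within each family the transcripts were unevenly shared. In vehicle, CDKN2D made up 86.8% ± 0.979 (SD, n = 3) of INK4 TPM and CCND2 76.8% ± 2.24 of D cyclin TPM.

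**Figure D1:**
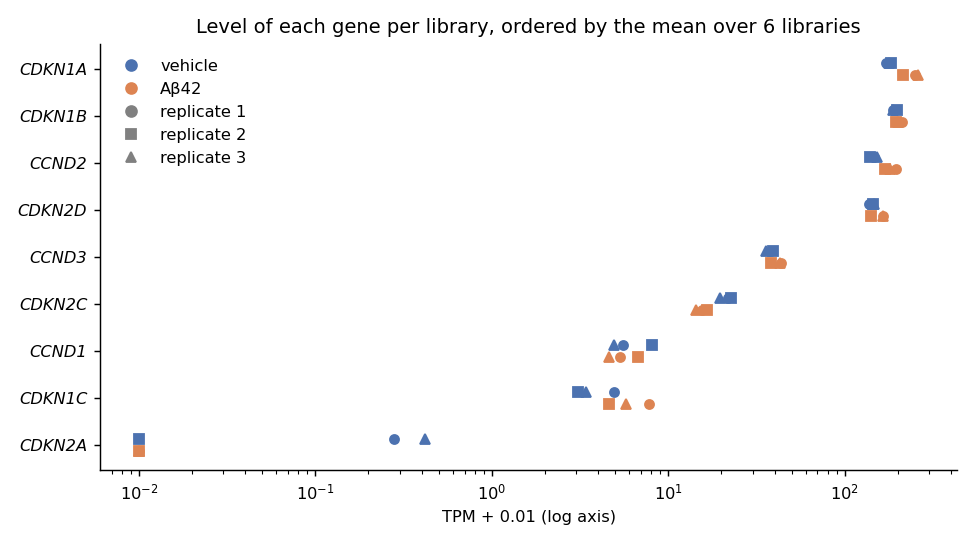
TPM of each of the 9 genes in each library (horizontal axis, logarithmic, with 0.01 added so that zeros can be drawn), vehicle in blue and Aβ42 in orange, with a symbol for each replicate number. CDKN1A, CDKN1B, CCND2 and CDKN2D sit above 100 TPM in every library, and CDKN2A lies at the left edge.

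CDKN1A encodes p21. Scaled to library size (TMM-normalised CPM, that is counts scaled to a common library size), it was at 127.9, 133.3 and 131.1 CPM in vehicle replicates 1 to 3 and at 190.6, 162.1 and 203.9 CPM in Aβ42 replicates 1 to 3. All 3 Aβ42 libraries lay above all 3 vehicle libraries, and Aβ42 replicate 2 was the nearest to vehicle. The means were 130.8 ± 2.73 and 185.5 ± 21.3 CPM (SD, n = 3 each), a 1.42-fold difference with a log2 fold change of 0.50 ± 0.08 (SE). The vehicle libraries were tightly grouped and the Aβ42 libraries more widely spread. Between libraries of the same replicate number the ratio was 1.49, 1.22 and 1.55. Its log2 fold change was larger than that of 96.8% of the 13842 genes tested.

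With 0.05 as the threshold on the adjusted p, edgeR's quasi-likelihood fit called none of the 8 tested genes of the set and 0.0% of the 13842 genes. At an unadjusted p under 0.05 there were 7 of the 8, where the share over all genes was 23.9% (12.4% higher, 11.5% lower). The DESeq2 Wald test called 3, CDKN1A and CCND2 higher and CDKN2C lower, against 6.3% of all genes (3.01% higher, 3.29% lower). The fit without a filter on low counts called the same 3 genes, against 2.07% of all genes (1.09% higher, 0.984% lower). Quality weights in limma-voom called 7, all but CCND1, against 17.8% of all genes (8.75% higher, 9.0% lower). CDKN1A, CCND2 and CDKN2C were among the 98 genes (0.708%) with the smallest adjusted p of the table, 0.0684. Deviations from the group means were correlated within each replicate number, most for number 2 (0.388), though replicates 1 and 3 were correlated across numbers as well (0.154 and 0.177). In the fit with the number as a block, a pairing that no label gives, 14.2% of genes passed, 7.12% higher and 7.05% lower. In that fit CDKN1A (adjusted p = 0.000309), CCND2 (0.000356) and CDKN1C (0.0212) were called higher and CDKN2C (0.00407) lower. Over 18 alternatives the adjusted p-value of CDKN1A ran from 1.79e-06 to 0.296. Over the 12186 genes averaging 50 counts or more, Aβ42 replicate 2 lay closer to the vehicle libraries (chi-square per gene 3.16 to 7.7) than to the other Aβ42 libraries (8.48 and 9.4). Without it, 7 of the 8 genes were called, all but CCND1, against 23.1% of all genes (11.5% higher, 11.6% lower).

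**Figure D2:**
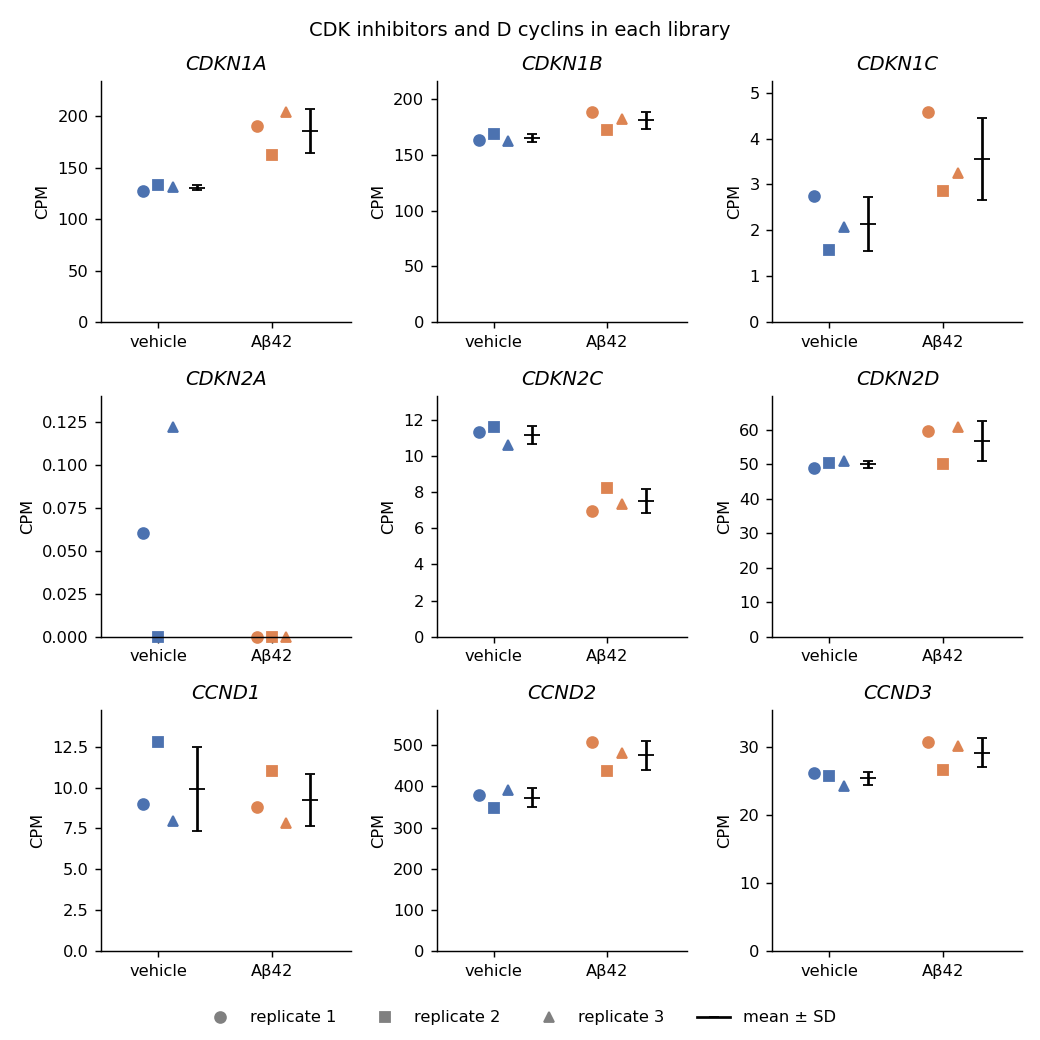
CPM of the 9 genes in each library (vertical axes start at 0), vehicle in blue and Aβ42 in orange, with the mean ± SD beside each group except for CDKN2A. CDKN1A, CCND2 and CDKN2C show the clearest separation, and Aβ42 replicate 2 (square) lies toward vehicle in most panels.

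CDKN1B, which encodes p27, was at 163.5, 169.0 and 162.0 CPM in vehicle and at 187.9, 172.2 and 182.3 CPM with Aβ42. The groups did not overlap in CPM, but on the TPM scale they did, since Aβ42 replicate 2 (195.97 TPM) lay below vehicle replicate 2 (198.7 TPM). The log2 fold change was 0.13 ± 0.05 (SE), with an adjusted p of 0.141 in edgeR's quasi-likelihood test and 0.103 with the block. CDKN1B was the only one of the 9 whose estimated counts were not whole, and how its reads were counted is not given in the sources used here.

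CDKN1C, the imprinted gene for p57, was scarce, at 46, 26 and 34 counts in vehicle and 75, 48 and 54 counts with Aβ42. In CPM this was 2.76, 1.58 and 2.07 against 4.57, 2.85 and 3.24, and the lowest Aβ42 library was just above the highest vehicle library. The log2 fold change was 0.73 ± 0.26 (SE; adjusted p = 0.134, edgeR), the largest in size among the 8 tested genes and the least precise. It was 0.51 without Aβ42 replicate 1 and 0.96 without vehicle replicate 1, and the groups overlapped in TPM.

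The Cip/Kip inhibitors summed to 362.9, 383.6 and 369.4 TPM in vehicle and 469.6, 414.4 and 468.6 TPM with Aβ42. The share of CDKN1A in that sum was 47.5% ± 0.55 in vehicle and 53.5% ± 2.12 with Aβ42 (SD, n = 3 each), and that of CDKN1B 51.5% ± 0.414 and 45.2% ± 2.16. The TPM ratio of CDKN1A to CDKN1B was 0.908, 0.915 and 0.941 in the 3 vehicle libraries and 1.18, 1.09 and 1.30 in the 3 Aβ42 libraries. CDKN1B was thus the more abundant of the pair in every vehicle library and CDKN1A in every Aβ42 library. The sum, the shares and the ratio all contain CDKN1A, on which the set was chosen, so they too are descriptions. CDKN1B itself overlapped between groups in TPM.

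Among INK4 inhibitors, CDKN2C was lower with Aβ42, where CDKN1A was higher. The gene encodes p18, an inhibitor of CDK4 and CDK6 made in dividing progenitors. It was at 11.3, 11.6 and 10.6 CPM in vehicle and at 6.95, 8.25 and 7.32 CPM with Aβ42, with no overlap. The means were 11.2 ± 0.512 and 7.51 ± 0.674 CPM (SD, n = 3 each), so the Aβ42 level was 67.2% of vehicle (log2 fold change -0.57 ± 0.11, SE; adjusted p = 0.0684, edgeR). Counts were 114 to 191 per library, and the groups stayed apart in TPM as well. Over 18 alternatives the log2 fold change lay between -0.65 and -0.45 and the adjusted p between 0.00265 and 0.296.

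CDKN2C also differed in the ratio of counts to TPM. That ratio was looked at for all 8 tested genes, and CDKN2C is described because its groups lay furthest apart. The ratio of counts to TPM follows the transcript length that the authors' scaling gave to a gene in each library. Set to the vehicle mean as 100%, and corrected for the library-wide ratio, it came to 97.9%, 98.8% and 103.3% for CDKN2C in the vehicle libraries, and to 83.8%, 93.9% and 93.7% in the Aβ42 libraries. All 3 Aβ42 libraries lay below the vehicle range, with means of 90.5% ± 5.74 with Aβ42 and 100% ± 2.91 in vehicle (SD, n = 3 each). Non-overlap of this ratio was common: it held for 37.1% of 11797 genes with at least 50 counts in every library, and 17.9% lay lower with Aβ42. A mean as low as that of CDKN2C together with non-overlap was found in 43 genes, or 0.364%. That cut-off is the mean of CDKN2C itself, which Aβ42 replicate 1 (83.8%) pulled down the most. The genes compared were not matched for counts, of which CDKN2C had 114 to 191 per library. CDKN1A, CDKN1B, CCND1 and CCND2 also had groups that did not overlap, but within 99.7% to 100.3%. CDKN2D (99.2% to 100.9%), CCND3 (98.1% to 102.8%) and CDKN1C (92.6% to 108.6%) overlapped, the last with few counts. No test of this ratio was run. RefSeq lists 3 start sites for CDKN2C in the promoter table, and which transcripts the reads came from was not tested.

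CDKN2D, which encodes p19 and is the INK4 gene of postmitotic neurons, was at 48.8, 50.3 and 50.9 CPM in vehicle and 59.6, 50.1 and 60.8 CPM with Aβ42. Aβ42 replicate 2 lay inside the vehicle range and the other Aβ42 libraries above it. The log2 fold change was 0.18 ± 0.08 (SE; adjusted p = 0.174, edgeR, and 0.0905 with the block). In TPM, CDKN2D exceeded CDKN2C by a ratio of 6.26, 6.38 and 7.44 in the vehicle libraries and of 10.6, 8.46 and 11.6 in the Aβ42 libraries. Summed over the INK4 genes the groups overlapped, at 164.6 ± 4.87 TPM in vehicle and 171.9 ± 13.5 TPM with Aβ42 (SD, n = 3 each).

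CDKN2A, the locus of p16 and ARF and a common marker of cell senescence, had 1, 0 and 2 counts in vehicle and 0 in each Aβ42 library. It was too low to test. A count of 0 allows up to 3 counts, or 0.178 to 0.183 CPM per library, for counting error only, so a change in CDKN2A was not detectable at this depth. Its neighbour CDKN2B, the remaining INK4 gene, was looked at after its values were seen and is not one of the 9. It had 12, 21 and 21 counts in vehicle and 30, 23 and 33 with Aβ42 (log2 fold change 0.66 ± 0.30, SE; adjusted p = 0.209, edgeR).

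CCND2 was the most abundant D cyclin of these organoids and, like CDKN1A, was higher with Aβ42. It was at 379.1, 348.4 and 390.8 CPM in vehicle and 508.1, 438.1 and 480.7 CPM with Aβ42, with no overlap in CPM or TPM. The means were 372.8 ± 21.9 and 475.6 ± 35.3 CPM (SD, n = 3 each), a 1.28-fold difference (log2 fold change 0.35 ± 0.06, SE; adjusted p = 0.0684, edgeR). The ratio within replicate numbers was 1.34, 1.26 and 1.23. CCND2 was therefore higher in the same libraries as the inhibitor CDKN1A.

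CCND3 was at 26.2, 25.7 and 24.3 CPM in vehicle and 30.8, 26.7 and 30.1 CPM with Aβ42. The groups were apart in CPM by a small margin and overlapped in TPM (log2 fold change 0.20 ± 0.08, SE; adjusted p = 0.155, edgeR, and 0.0896 with the block). CCND1, the D cyclin best known as a Wnt and mitogen target, was at 9.01, 12.8 and 7.93 CPM in vehicle and 8.84, 11 and 7.86 CPM with Aβ42. Its groups overlapped fully, with a log2 fold change of -0.10 ± 0.19 (SE; adjusted p = 0.775, edgeR) that was 0.13 without vehicle replicate 2. The D cyclins summed to 189.9 ± 4.24 TPM in vehicle and 228.0 ± 14.7 TPM with Aβ42 (SD, n = 3 each), without overlap, most of it CCND2.

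Both libraries numbered 2 had the highest CCND1, and both also had the highest summed level of 8 choroid plexus markers, at 7599 TPM in vehicle and 6679 TPM with Aβ42. The other libraries had 3361 and 3978 TPM in vehicle and 3650 and 2846 TPM with Aβ42, and TTR was the most abundant of these markers. The part of choroid plexus RNA in the level of CCND1 was not tested. In bulk RNA, fewer cells of a type and less RNA per cell cannot be told apart.

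**Figure D3:**
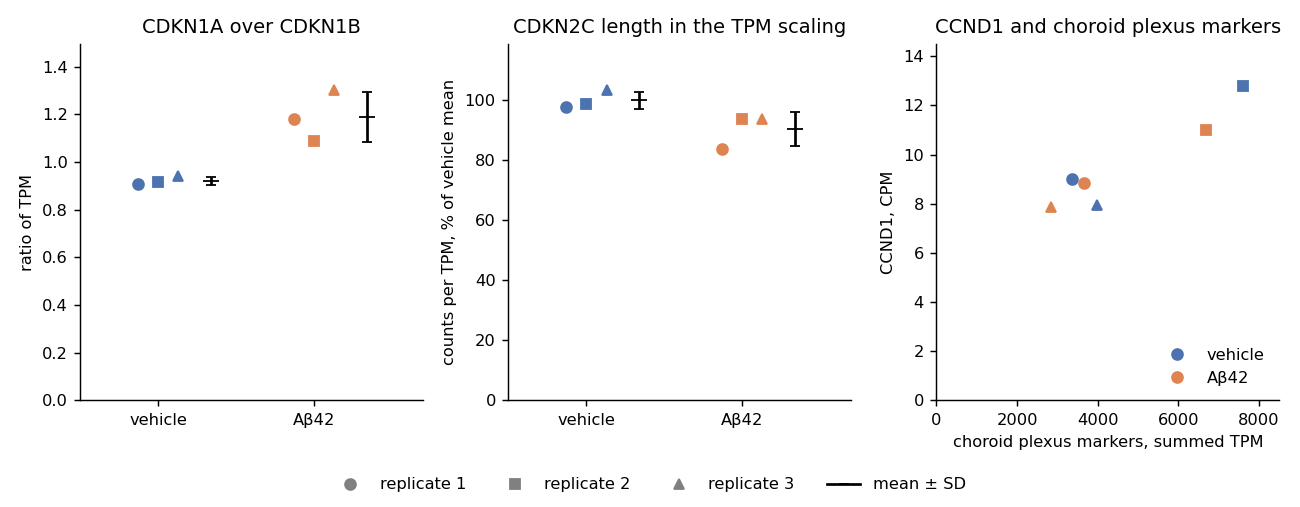
Left, TPM ratio of CDKN1A to CDKN1B by library; middle, counts per TPM of CDKN2C as a percent of the vehicle mean; right, CCND1 (CPM) against the summed TPM of 8 choroid plexus markers. Bars are mean ± SD over 3 libraries. The first ratio is below 1 in vehicle and above 1 with Aβ42, and the libraries numbered 2 (squares) stand apart at the right.

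Across the set, 6 of the 8 tested genes were higher and 2 lower with Aβ42, with a median log2 fold change of 0.19 against 0.00 over all genes. Groups did not overlap for 6 genes, 5 higher and 1 lower, where 27.0% of all tested genes did not overlap (13.6% higher, 13.4% lower). On the TPM scale 3 of the 6, CDKN1A, CCND2 and CDKN2C, stayed apart, where 27.6% of all tested genes did not overlap (9.0% higher, 18.6% lower). In the fits on TPM the median log2 fold change over all tested genes was -0.040 and -0.043, so TPM lay slightly lower with Aβ42 in general. Aβ42 replicate 2 was the Aβ42 library nearest to the vehicle mean for 7 of the 8 genes, the exception being CCND1. The summed TPM of the 6 inhibitors was 2.74, 2.97 and 2.76 times that of the 3 D cyclins in vehicle and 2.67, 2.67 and 2.85 times with Aβ42. That balance overlapped between groups. The inhibitor sum was 536.6 ± 14.9 TPM in vehicle and 622.8 ± 45.1 TPM with Aβ42 (SD, n = 3 each). CDKN1A, on which the set was chosen, was 176.5 and 241.6 TPM of these means. The INK4 sum overlapped between groups, and so did CDKN1B and CDKN1C in TPM.

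**Figure D4:**
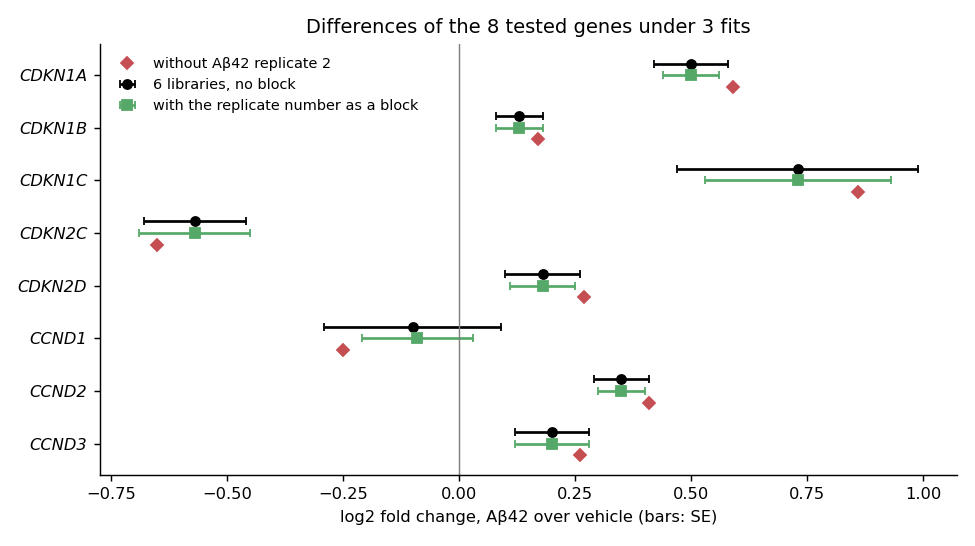
Log2 fold change of Aβ42 over vehicle for the 8 tested genes from 6 libraries without a block (black, ± SE), with the replicate number as a block (green, ± SE) and without Aβ42 replicate 2 (red). The estimates with and without the block coincide, and leaving out that library moves each value away from 0.

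The genes around this set were read from lists of functions. Over all 13842 tested genes 7024 were higher and 6818 lower. The block fit called 7.12% higher and 7.05% lower, and 13.6% lay higher and 13.4% lower without overlap. Every list count below stands beside these shares, and none was tested against them. Of 22 transcription factors reported at the CDKN1A promoter, 20 were tested, 16 higher and 4 lower, with a median log2 fold change of 0.10. With the block 4 were called, all higher, among them KLF6, and CEBPA and ATF4, which are named because the count was small. KLF6, a GC box factor, was at 83.6, 78.6 and 87.5 CPM in vehicle and 104.2, 91.2 and 110.5 CPM with Aβ42, with no overlap (log2 fold change 0.29 ± 0.07, SE; adjusted p = 0.0734, edgeR).

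The kinases that these inhibitors and cyclins act on had log2 fold changes below 0. CDK4 was at 57.1, 52.8 and 53.6 CPM in vehicle and 48.9, 58.0 and 49.7 CPM with Aβ42, and CDK2 went from 24.2 ± 2.05 to 22.4 ± 1.77 CPM (SD, n = 3 each). The log2 fold changes were -0.06 ± 0.07 and -0.11 ± 0.09 (SE), and neither passed with or without the block. CDK6 was at 78.9, 86.6 and 86.7 CPM in vehicle and 71.2, 79.8 and 65.1 CPM with Aβ42, with overlapping groups. Its log2 fold change was -0.22 ± 0.07 (SE; adjusted p = 0.121, edgeR, and 0.0269 with the block). Of 13 G1 kinases and partner cyclins, 9 were lower, and the block fit called 4 of them, all lower. These were CDK6, the S phase cyclin CCNA2 (30.3 CPM or more in vehicle, 26.4 CPM or less with Aβ42), and CCNE2 and CDC25A, named because the count was small.

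Downstream of the D cyclins, 10 of 13 pocket proteins and E2F-DP factors were lower (median log2 fold change -0.12). RB1, the retinoblastoma gene, was at 104.7, 116.2 and 107.6 CPM in vehicle and 91.8, 103.9 and 90.5 CPM with Aβ42. RBL1, the family member tied to cycling cells, went from 25.4 ± 0.49 to 17.7 ± 3.83 CPM (SD, n = 3 each; log2 fold change -0.52 ± 0.13, SE), while RBL2, the member of resting cells, was at 153.9 ± 3.30 and 154.9 ± 4.83 CPM. E2F1 was at 12.1 ± 0.207 and 9.29 ± 2.80 CPM, where Aβ42 replicate 2 (12.5 CPM) lay above every vehicle library. E2F7, a repressive E2F, went from 20.0 ± 1.86 to 13.8 ± 2.68 CPM with no overlap. With the block RB1, RBL1, E2F7 and E2F2 were called lower, the last named because the count was small.

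Genes of the later cycle came next. Of 7 genes of the MuvB core and its partners, 6 were lower, and the block fit called MYBL2 (19.7 ± 1.69 to 10.6 ± 2.88 CPM) and FOXM1 (25.3 ± 0.724 to 16.6 ± 4.37 CPM; SD, n = 3 each), the activators of mitotic genes. Of 20 S phase genes 19 were lower, 10 called lower with the block and 4 lower without overlap. Over all tested genes these last 2 shares were 7.05% and 13.4%. The median log2 fold change was -0.28, and ran from -0.18 without Aβ42 replicate 1 to -0.44 without Aβ42 replicate 2. Of 20 G2 and M phase genes all 20 were lower (-0.47, 17 called lower with the block, 14 without overlap). Intermediate progenitor markers were lower in 9 of 10 (-0.62, 6 called lower with the block), from 374.8 to 425.6 summed TPM in vehicle against 268.1 to 301.8 TPM with Aβ42. CCND2 and CDKN1A were thus higher in libraries where division genes were lower. Division genes were lowered least in Aβ42 replicate 2. There S phase genes summed to 815.9 TPM, against 838.6 to 897.9 TPM in vehicle and 664.5 and 649.2 TPM in the other Aβ42 libraries. The part that fewer dividing cells had in the levels of the 9 genes was not tested.

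**Figure D5:**
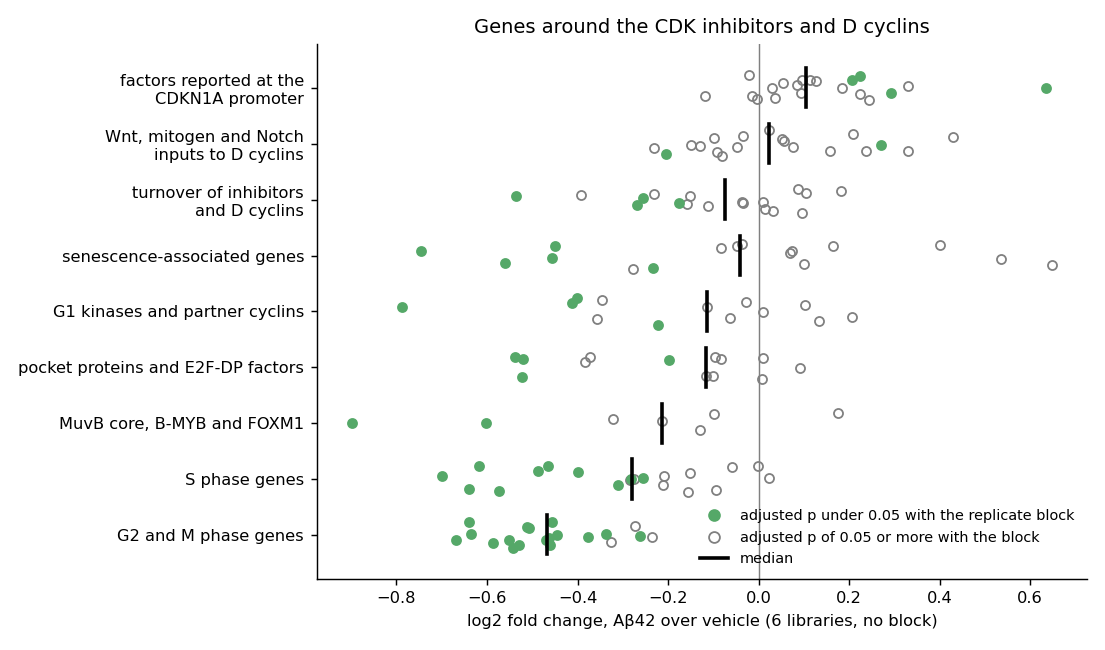
Log2 fold change (no block) of each tested gene in 9 lists around the CDK inhibitors and D cyclins. Filled points passed with the replicate block, and black bars are list medians, which run from 0.10 for factors at the CDKN1A promoter to -0.47 for G2 and M phase genes.

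The ligases that remove these proteins were read next, since protein turnover is a main control of p27, p21 and the D cyclins. Of 18 such genes 11 were lower (median log2 fold change -0.07, and -0.11 without Aβ42 replicate 2), and the block fit called 4, all lower. SKP2, which targets p27, was at 41.9, 42.6 and 44.1 CPM in vehicle and 37.8, 37.3 and 31.7 CPM with Aβ42 (-0.27 ± 0.08, SE; adjusted p = 0.0891, edgeR, and 0.0237 with the block). CUL1, the scaffold of the same ligase, went from 121.6 ± 3.29 to 107.6 ± 5.44 CPM (SD, n = 3 each). The other called genes, named because the count was small, were DTL and PCNA, which act in the removal of p21 and also belong to S phase.

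CDKN1A and CDKN2A are read as senescence markers, so other senescence-associated genes were counted. Of 20 listed, 16 were tested, 7 higher and 9 lower (median log2 fold change -0.04, but 0.11 without vehicle replicate 1 and -0.16 without both libraries numbered 2), and the block fit called 5, all lower. The list was not split by the direction that a gene takes in senescent cells. Its median and counts therefore do not speak for or against senescence. LMNB1, the nuclear lamina gene, went from 116.7 ± 5.48 to 85.0 ± 14.2 CPM (SD, n = 3 each; log2 fold change -0.46 ± 0.11, SE). HMGB1, a chromatin protein, went from 468.0 ± 24.0 to 398.1 ± 30.9 CPM. The remaining called genes, named because the count was small, were IGFBP7, CCL2 and MMP3, which encode secreted factors. Without overlap 2 genes of the list lay higher and 2 lower, the latter LMNB1 and HMGB1. The groups therefore overlapped for IGFBP7, CCL2 and MMP3. IL6 was listed at 0 in every library. The division genes described above were lower in the same libraries, and their part in the level of LMNB1 was not tested.

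Among 20 Wnt, mitogen and Notch inputs to D cyclins, 19 were tested, 10 higher and 9 lower. The median log2 fold change was 0.02, but -0.05 without vehicle replicate 1. On both TPM scales it was -0.02, where the median over all tested genes was itself -0.040 and -0.043. With the block NOTCH1 was called higher and FGFR2 lower, the latter named because the count was small. Over all tested genes the block fit called 7.12% higher and 7.05% lower. NOTCH1 was at 159.6, 129.1 and 146.7 CPM in vehicle and 192.9, 157.3 and 175.3 CPM with Aβ42, with overlapping groups. GLI2, a Hedgehog effector, went from 28.3 ± 0.428 to 24.1 ± 3.24 CPM (SD, n = 3 each; -0.23 ± 0.09, SE) and did not pass with the block. Without overlap 3 genes of the list lay higher and 1 lower, where the shares over all tested genes were 13.6% and 13.4%. The 1 lower was GLI2, so the groups of FGFR2 overlapped.

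The genes most like CDKN1A over the 6 libraries, by Pearson's r of log2 CPM among 10284 genes, were SEC24D (0.999), PSAP (0.997), RIPK2 (0.995), HLF (0.995) and ITPRID2 (0.993). Those least like it were KMT5B, FAAP20 and SRP19 (all -0.994). HLF, a PAR bZIP transcription factor, went from 10.5 ± 0.448 to 20.4 ± 4.25 CPM (SD, n = 3 each). With 6 libraries in 2 groups, 609 genes had an r of at least 0.9 with CDKN1A, so the likeness is common. For CCND2 the closest were RAB11FIP5 (0.999), MCUR1 (0.997) and SASH1 (0.997), and 802 genes reached 0.9. For CCND1 they were ZC3H12B (0.990), PFKFB2 (0.982) and RFC5 (0.980), and 41 genes reached 0.9. Within the set CDKN1A had an r of 0.94 with CDKN1B, 0.93 with CCND2, -0.97 with CDKN2C and -0.33 with CCND1. These values share the libraries, their depth and the treatment.

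The tissue label was checked against markers. All 10 dorsal forebrain markers were tested, summing to 1932 to 1990 TPM in vehicle and 1802 to 1943 TPM with Aβ42. The labels give the cell type as an induced pluripotent stem cell, but of 6 pluripotency markers 1 passed the filter, TDGF1 was listed at 0, and the sum was 2.0 to 3.88 TPM. Of 11 microglia markers 1 was tested, 5 were listed at 0 (TREM2, TYROBP, C1QA, C1QB and C1QC), and the sum was 4.71 to 5.64 TPM in vehicle and 5.29 to 6.37 TPM with Aβ42. Ventricular radial glia markers summed to 7726 to 8038 TPM in vehicle and 7990 to 8336 TPM with Aβ42, and pan-neuronal markers to 6067 to 6431 and 5742 to 5962 TPM. Of the 13 pan-neuronal markers 6 were higher and 7 lower, with a median log2 fold change of -0.00. The block fit called 3 of them, all lower. Hypoxia and glycolysis genes were higher in 19 of 20 (median 0.50, 7 called higher with the block), at 2429 to 3802 TPM in vehicle and 3920 to 4581 TPM with Aβ42. Vehicle replicate 2 was the lowest, and the median was 0.27 without it. Astrocyte markers (7 tested, 2 called lower with the block) had a median of -0.49, which was -0.15 without Aβ42 replicate 1 and -0.86 without Aβ42 replicate 2. Interneuron markers (5 tested, none called) had a median of 0.45, which was 0.15 without vehicle replicate 2 and 0.78 without vehicle replicate 3. Outer radial glia markers summed to 2395 to 2572 TPM in vehicle and 2214 to 2449 TPM with Aβ42. Mesenchymal and vascular markers (27.9 to 41.2 and 24.9 to 29.1 TPM) and oligodendrocyte lineage markers (5.47 to 6.53 and 4.66 to 5.12 TPM) were scarce. The part of these genes in the levels of CDKN1A, CDKN2C and CCND2 was not tested.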

How the data were processed

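RNA sequencing values of 6 libraries were used, 3 per group, with groups and replicate numbers taken from the sample titles. The authors deposited estimated counts and TPM for 18056 genes. Per the submitters' processing notes, FastQC, STAR 2.7.11b, featureCounts 2.0.6 and GRCh38 were used. The annotation, the counting mode and its use of strand are not given in the sources used here. Only 86.86% to 87.50% of the deposited counts were whole, so they were treated as estimated counts and rounded. TPM was scaled for length by the authors and summed to about 1000000 per library.

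Genes passing filterByExpr (13842) were scaled by TMM and compared with edgeR 4.0.16 (R 4.3.3; quasi-likelihood, robust dispersion, two-sided, Benjamini-Hochberg over all tested genes, threshold 0.05). The SE is the log2 fold change over the root of the F statistic. Alternatives used limma 3.58.1, DESeq2 1.42.0, other scalings and filters, TPM, the replicate block and left-out libraries. Scripts were tested on simulated data.

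Deviations from the group means correlated between same-numbered libraries at 0.181, 0.388 and 0.129 (12186 genes averaging 50 counts or more), all above 0.1, so the numbers were taken to pair libraries from the data alone, since no label says so. Replicates 1 and 3 also correlated across numbers (0.154 and 0.177), and the other differently numbered pairs lay between -0.302 and -0.22, so that mainly number 2 stood apart. Deviations cancel out within each group, so with number 2 apart, numbers 1 and 3 tend to correlate positively whatever their pairing. Since 0.177 and 0.154 also exceed the 0.129 of number 3, the data do not tell the pairing of numbers 1 and 3 from the crossed one. Every call with the block rests on this pairing. No pair of libraries looked duplicated (chi-square per gene 3.16 to 21.1, the lowest between vehicle replicate 1 and Aβ42 replicate 2). The biological coefficient of variation was 6.75%. No source used here mentions molecular identifiers, so intervals and floors cover counting error only.

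The 9 genes and all lists were chosen with earlier results of these data known. Named genes were all 9, the 2 smallest p-values in each of 8 lists, 11 set genes and the genes most or least like CDKN1A, CCND1 and CCND2 (mean of at least 10 CPM). Some genes that this rule names, and one of the lists, are not reported here. Reads of antisense or overlapping genes may be included where the counting ignored strand.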

Additional observations from a re-analysis of the deposited data

How the results depend on the processing

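Where 0 genes and 0 of the 8 tested genes of the set were called, other settings called 360 and 3 without a filter on low counts, 804 and 3 by DESeq2, 2457 and 7 by limma-voom with quality weights, and 1962 and 4 with the replicate block. Leaving out one library gave 0 to 3224 genes and 0 to 7 of the set, with calls only without Aβ42 replicate 2. Leaving out both libraries numbered 2, chosen after seeing the data, gave 2316 and 6. Upper-quartile or RLE scaling, limma-voom, non-robust dispersion, both TPM scales and a filter at 10 counts called 0. The log2 fold change of CDKN1A was 0.50 without a filter (adjusted p = 0.0321), by DESeq2 (1.79e-06) and with the replicate block (0.000309), and 0.56 with quality weights (0.00794). It ran from 0.43 to 0.59 over the fits that leave out one library, and was 0.61 (5.41e-05) without both libraries numbered 2. CDKN1C was called with the block, with quality weights and without Aβ42 replicate 2, but by neither DESeq2 nor the fit without both libraries numbered 2. CCND1 changed sign without vehicle replicate 2 (0.13), was at 0.00 without Aβ42 replicate 3, and at -0.25 without Aβ42 replicate 2. Groups stayed apart for 3 genes in TPM and 7 under upper-quartile scaling in place of 6. Over left-out libraries the count was 6 to 7. Leaving out a library cannot make groups that were apart overlap, so that count could not fall and is no check. The quality weight of Aβ42 replicate 2 was 0.395, the lowest of the 6. The cause of these differences was not tested. Depth limits CDKN2A, CDKN2B and CDKN1C.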
